A study of Mus musculus and Homo sapiens with 47 samples.

Results

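The genes described here are 57 developmental transcription factors outside the HOX clusters, taken by symbol from a fixed list of SOX, BARX, TBX, SIM, FOX, LHX, PAX, GATA, IRX, DLX, NKX, OTX, EN and related factors. All 57 symbols were found among the 25369 genes of the human count table. Their mRNA was followed by RNA-seq in SUDHL10, an established human B cell lymphoma line of the germinal centre type. Cells were left untreated (2 libraries, labelled day 5), or received UNC1999 at 5 µM for 1, 3, 5 or 6 days (2 libraries a day), or MAK683 at 5 µM for 1, 3 or 5 days (1 library a day). UNC1999 blocks the catalytic site of EZH2 and EZH1, and MAK683 binds the EED subunit of the same complex. The model is 1 lymphoma line and the untreated cells are labelled with 1 day only, so that at days 1, 3 and 6 the compound and the day of harvest cannot be told apart. Mouse and chromatin samples are not covered.

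Polycomb repressive complex 2 (PRC2) places methyl groups on lysine 27 of histone H3, and the trimethylated form, H3K27me3, marks genes that are kept silent. Genes for transcription factors that set cell fate in the embryo, among them the SOX, PAX, GATA, DLX and LHX families, are classical carriers of the mark in cells of other lineages. Many of these factors act mainly outside blood, though not all, since GATA2 is a blood stem cell factor. SOX2 belongs to pluripotent and neural stem cells, SOX9 to cartilage and gut, GATA4 to heart and endoderm, and DLX2 to forebrain and branchial arches. PAX5 and EBF1, which B cells do require, are not among the 57 genes.

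The 13 libraries held between 26234896 and 39315662 counts each. Levels are given as CPM, the count of a gene scaled to a common library total after TMM correction, where 3 counts in a library correspond to between 0.0746 and 0.114 CPM. CPM is not corrected for gene length, so a level is compared between libraries and not between genes. The B cell label fits the markers: all 9 B cell genes examined had counts in every group, and their summed level was 4729 to 4756 CPM in untreated cells. Markers of other cell types were mixed. CD3D and NEFL were at 0.0346 CPM or below in every library, while the neuronal tubulin TUBB3 ranged from 76.7 to 347 CPM and CD3E from 0.103 to 10.95 CPM. Of the plasma cell markers, XBP1 ranged from 22.7 to 60.8 CPM and IRF4 from 0.440 to 28.5 CPM, while SDC1 and PRDM1 had at most 0.618 and 0.373 CPM. The myeloid markers LYZ and CSF1R reached 5.45 and 3.85 CPM. In bulk RNA, fewer cells expressing a gene cannot be told apart from less RNA per cell. Replicates are labelled biological, but no label says that they came from separate cultures, so a p-value here reflects library-to-library spread that could in part be technical.

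Most of the 57 factors were silent or nearly so before treatment. In the 2 untreated libraries 24 factors had 0 counts, 17 had counts but a mean under 0.1 CPM, 8 lay between 0.1 and 1 CPM, and 8 were at 1 CPM or more. The last group held SOX5, PAX6, PAX8, PAX9, PITX1, EBF3, OTX1 and MEIS1. The 8 intermediate factors were TBX1, TBX3, SIM1, SIM2, FOXC1, LHX9, IRX5 and DLX1. A total of 25 factors stayed under 0.1 CPM in every library, and 9 of them (SOX3, SOX8, SOX17, FOXF1, IRX1, DLX5, NKX2-1, HAND2 and EN1) had no count in any of the 13 libraries. Over a library, 0 counts allow a level of up to 0.0746 to 0.114 CPM, by counting error alone.

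Of the 41 factors that started at 0 counts or under 0.1 CPM, 4 reached 1 CPM in both libraries of at least 1 UNC1999 day: GATA4 from 0 counts, and SOX2, SOX9 and DLX2 from 1 to 4 counts. Only 20 of the 57 factors had enough counts to be tested: 2 of the 24 that started at 0 (LHX2 and GATA4), 4 of the 17 under 0.1 CPM (SOX2, SOX9, GATA2 and DLX2), 6 of the 8 intermediate and all 8 above 1 CPM. A factor that starts at 0 could enter the test only through treated libraries where it has counts, so these shares are a description and carry no test. The plot of starting against highest level sets the 57 factors side by side.

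**Figure D1:**
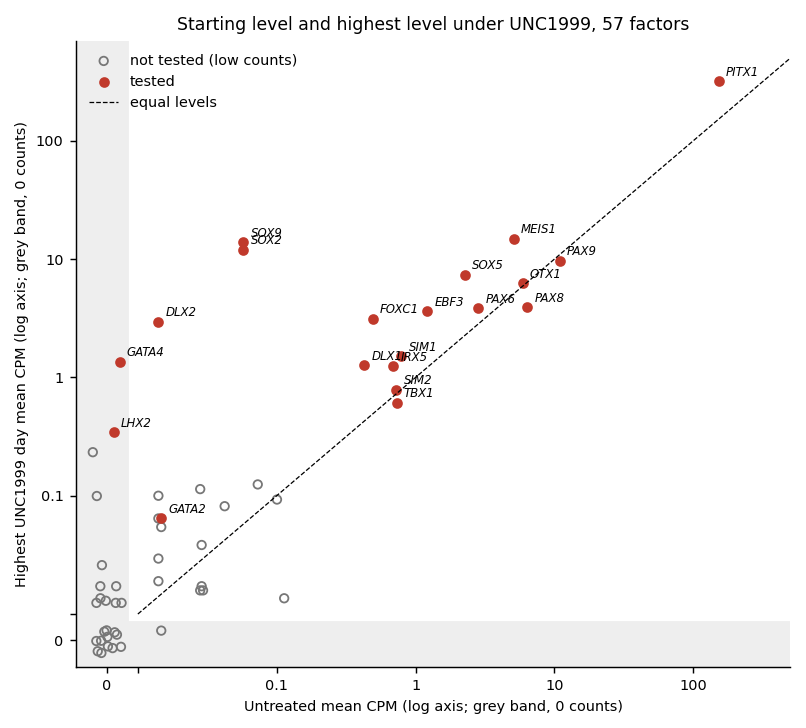
Mean untreated CPM of each of the 57 factors (x axis, log scale) against its highest mean CPM over the 4 UNC1999 days (y axis, log scale). Filled points are the 20 tested factors, open points the 37 with too few counts, and factors with 0 counts lie in the grey bands with a random offset. SOX2, SOX9, DLX2 and GATA4 lie farthest above the line of equal levels, while PAX8 and PAX9 lie below it.

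With days 5 and 6 of UNC1999 combined, 8 of the 20 tested factors were higher than in untreated cells and 4 were lower, at an adjusted p under 0.05. Of all 15278 genes tested, 63.2% were called in either direction, so the 12 calls among 20 factors are near the background and say nothing particular about this list. The count is also shaped by the filter, since SOX2, SOX9, DLX2, GATA4 and LHX2 had 0 to 4 untreated counts and were tested because of their treated libraries. The 8 were SOX2, SOX9, SOX5, DLX2, GATA4, PITX1, MEIS1 and EBF3, and the 4 were SIM1, IRX5, PAX8 and PAX9.

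SOX2, a pluripotency and neural stem cell factor, had 0.0562 and 0.0589 CPM in the untreated libraries, 4 counts in all. It had 0 counts in both libraries at day 1, 0.0317 and 0.163 CPM on day 3, 6.29 and 5.12 CPM on day 5, and 12.97 and 11.1 CPM on day 6. The 4 late libraries lay above every earlier one, and the day 6 libraries above those of day 5. The change at days 5 and 6 was 135-fold (log2 7.08, SE 0.52, adjusted p = 3.08e-11). SOX2 lies inside the long non-coding gene SOX2-OT. SOX2-OT had 0.197 and 0.0589 CPM in untreated cells, 3.55 and 1.76 CPM on day 5, and 5.65 and 5.23 CPM on day 6. Because these genes overlap, their reads cannot be fully told apart. The library kit named in the labels does not keep the strand.

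SOX9, the master regulator of cartilage that is also active in gut crypts, started at the same counts as SOX2, with 0.0562 and 0.0589 CPM. It had 0 and 0.0344 CPM on day 1, 0.222 and 0.0815 CPM on day 3, 10.1 and 7.68 CPM on day 5, and 13.3 and 14.3 CPM on day 6. Late and untreated libraries were far apart, and the increase was 181-fold (log2 7.50, SE 0.47, adjusted p = 1.29e-12). Its antisense neighbour SOX9-AS1 had 0 counts up to day 3 and 0.114 to 0.318 CPM on days 5 and 6.

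SOX5, a SoxD factor of cartilage and neurons, was present at the start. It had 1.71 and 2.80 CPM untreated, 0.0308 and 0.0344 CPM on day 1, 0.254 and 0.489 CPM on day 3, 6.63 and 4.40 CPM on day 5, and 6.80 and 7.92 CPM on day 6. The early libraries were below the untreated ones and the late libraries above them. At day 1 the ratio to untreated was 0.0145, with an exact 95% interval from counts of 0.00174 to 0.0532 (2 counts against 156, adjusted p = 1.80e-08). At day 3 SOX5 was 5.93-fold lower (log2 -2.57, SE 0.41, adjusted p = 9.99e-06), and at days 5 and 6 it was 2.82-fold higher (log2 1.50, SE 0.30, adjusted p = 0.000134). At day 1 some other measures were lower as well and some were higher, and at day 3 part of the lower ones were not. Genes with counts numbered 15557 and 16590 in the untreated libraries, 14839 and 14947 at day 1, and 15635 and 15958 at day 3, where they lay within the untreated range. The summed level of 4 epithelial markers was 1.50 to 3.96 CPM in untreated cells, 0.0617 to 0.137 CPM on day 1 and 0.634 to 0.761 CPM on day 3. The summed T cell markers had 1.62 to 2.08 CPM untreated, 0.103 to 0.278 CPM on day 1 and 1.66 to 2.00 CPM on day 3, again within the untreated range. Nearly all of that sum was CD3E, with 1.97 and 1.59 CPM untreated and 0.278 and 0.103 CPM on day 1. Higher at day 1 was the neural marker sum, with 85.1 to 103 CPM untreated and 225 to 247 CPM on day 1. Nearly all of it was TUBB3, with 82.2 and 102.5 CPM untreated and 224 and 246 CPM on day 1. Of 3 neural genes tested at day 1, 1 was higher and 1 lower. The summed PRC2 genes were higher too, with 1306 to 1347 CPM untreated and 1444 to 1463 CPM on day 1. The part of these shifts in the SOX5 result was not tested.

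DLX2, a homeodomain factor of forebrain interneurons and jaw, was the earliest of the near-silent factors to appear. It had 1 count in the untreated libraries (0.0281 and 0 CPM), 0.463 and 1.03 CPM on day 1, 2.69 and 3.23 CPM on day 3, 1.81 and 1.67 CPM on day 5, and 1.16 and 1.44 CPM on day 6. All treated libraries were above both untreated ones, and the highest levels were those of day 3. The ratio to untreated was 50.8 at day 1 (95% interval 8.67 to 2052, adjusted p = 4.93e-05), 207 at day 3 (36.8 to 8233, adjusted p = 1.80e-07) and 107 at days 5 and 6 (19.0 to 4242, adjusted p = 9.32e-07). From day 1 to day 3 DLX2 rose 3.98-fold (log2 1.99, SE 0.56, adjusted p = 0.00761), a call lost in 2 of 11 alternatives, without the first day 1 library (0.104, the highest of the alternatives, with 0.00164 the lowest) or the second day 3 library (0.0567). Its neighbour in the same family, DLX1, had 0.703 and 0.147 CPM untreated and between 0.55 and 1.39 CPM over the 8 UNC1999 libraries. DLX1 was not called at days 5 and 6 (log2 1.00, 95% interval -0.31 to 2.30, adjusted p = 0.176) or at day 5 alone (1.56, interval 0.12 to 3.00, adjusted p = 0.0587).

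GATA4, which directs heart and endoderm development, had 0 counts in the untreated and day 1 libraries. It had 0.254 and 0.272 CPM on day 3, 1.48 and 0.671 CPM on day 5, and 1.16 and 1.55 CPM on day 6. The day 3 libraries were above all earlier ones and the late libraries above those of day 3. Against a floor of 3 counts over the untreated group, GATA4 was at least 6.10-fold higher at day 3 (adjusted p = 0.00482) and at least 27.4-fold higher at days 5 and 6 (adjusted p = 6.21e-05). The other GATA factors of the list stayed low. GATA2, a blood stem cell and mast cell factor, had at most 0.305 CPM in any library and was called in no comparison, GATA3 had 9 counts and GATA6 5 counts over all 13 libraries.

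LHX2, a LIM-homeodomain factor of brain and hair follicle, also started from 0 counts. It had 0.388 and 0.298 CPM on day 5 but only 0.0579 and 0 CPM on day 6, so the late libraries did not agree between days. At day 5 it was at least 7.93-fold higher than untreated (adjusted p = 0.0185), a call lost in 4 of 8 alternatives, with adjusted p from 0.00332 to 0.12. Those 4 were DESeq2 (0.12) and the fits without either untreated library (0.0831 without library a, 0.0813 without library b) or without the first day 5 library (0.0592). Over days 5 and 6 together it did not pass (adjusted p = 0.0843).

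**Figure D2:**
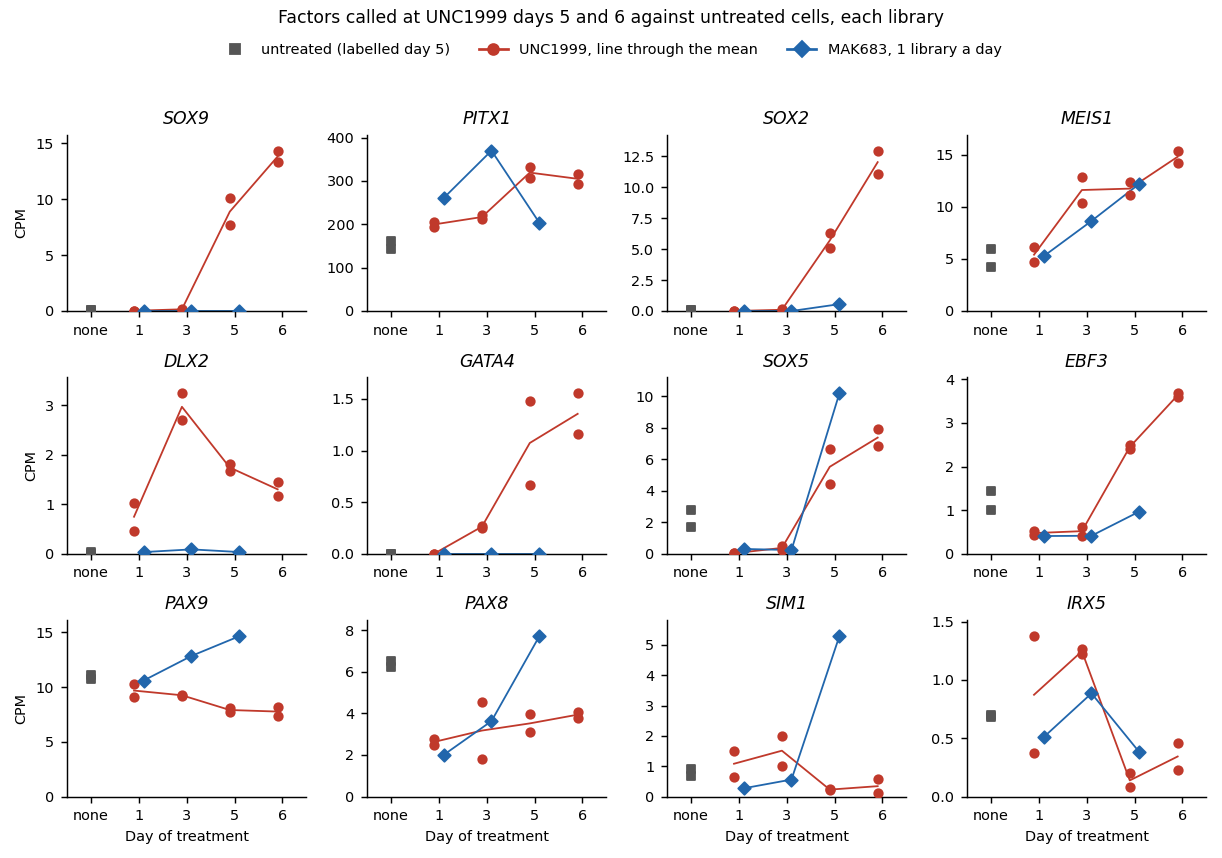
CPM of the 12 factors called at UNC1999 days 5 and 6, by day of treatment, with 1 point per library, a line through the UNC1999 means and a line through the single MAK683 libraries. Each y axis starts at 0 and has its own scale. SOX9 and SOX2 climb between days 3 and 5 under UNC1999, DLX2 is highest at day 3, SOX5 dips before it rises, and SIM1 is high in the MAK683 day 5 library at 5.29 CPM.

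PITX1, a paired-type homeodomain factor of hindlimb and pituitary, had the most counts of the list at every stage. It had 143 and 161 CPM untreated, 204 and 195 CPM on day 1, 222 and 211 CPM on day 3, 332 and 306 CPM on day 5, and 293 and 317 CPM on day 6. Every UNC1999 library exceeded both untreated ones. PITX1 was 1.31-fold higher at day 1 (log2 0.39, SE 0.08, adjusted p = 0.000194), 1.42-fold higher at day 3 (log2 0.51, SE 0.08, adjusted p = 6.98e-06) and 2.05-fold higher at days 5 and 6 (log2 1.04, SE 0.07, adjusted p = 7.73e-12).

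MEIS1, a TALE homeodomain cofactor of HOX proteins, had 5.93 and 4.21 CPM untreated and 4.69 and 6.12 CPM on day 1, where the libraries overlapped. It had 10.4 and 12.9 CPM on day 3, 11.1 and 12.4 CPM on day 5, and 14.2 and 15.4 CPM on day 6, all above the untreated and day 1 libraries. MEIS1 was 2.29-fold higher at day 3 (log2 1.19, SE 0.20, adjusted p = 1.45e-05) and 2.59-fold higher at days 5 and 6 (log2 1.38, SE 0.18, adjusted p = 3.29e-07).

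EBF3, a paralog of the B cell factor EBF1 that acts in neurons and muscle, had 1.43 and 1.00 CPM untreated. It had 0.432 and 0.515 CPM on day 1, 0.412 and 0.625 CPM on day 3, 2.49 and 2.41 CPM on day 5, and 3.59 and 3.68 CPM on day 6, a course like that of SOX5 with a shallower dip. At days 5 and 6 it was 2.44-fold higher than untreated (log2 1.29, SE 0.41, adjusted p = 0.0084), a call lost in 1 of 11 alternatives, without untreated library b (0.0786, alternatives from 0.00254). Against day 1 it was 6.27-fold higher (log2 2.65, SE 0.46, adjusted p = 4.22e-05). The decreases at day 1 (2.57-fold, adjusted p = 0.0254) and day 3 (2.33-fold, adjusted p = 0.0385) were each lost in 3 of 9 alternatives. For day 1 these were the fit of only the groups compared (0.0629), untreated library a left out (0.105) and the first day 1 library left out (0.117, with 0.0171 the lowest). For day 3 they were the same fit (0.122), untreated library a left out (0.169) and the first day 3 library left out (0.181, with 0.0292 the lowest).

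FOXC1, a forkhead factor of mesoderm and eye, had its maximum at day 3. It had 0.365 and 0.619 CPM untreated, 0.74 and 0.79 CPM on day 1, 3.39 and 2.85 CPM on day 3, 1.14 and 1.12 CPM on day 5, and 0.811 and 0.758 CPM on day 6. The day 3 libraries stood above all other UNC1999 libraries. FOXC1 was 6.31-fold higher than untreated at day 3 (log2 2.66, SE 0.50, adjusted p = 7.47e-05) and did not pass at day 6 (log2 0.67, 95% interval -0.41 to 1.75, adjusted p = 0.279). At day 5 it was 2.29-fold higher (adjusted p = 0.0458), a call lost in 6 of 9 alternatives, among them each fit without untreated library a (0.225, the highest, with 0.0347 the lowest), the first day 5 library (0.122) or the second (0.114). The other forkhead factors of the list, FOXC2, FOXD1 and FOXF1, had 4, 1 and 0 counts over the 13 libraries.

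The 2 SIM factors, basic helix-loop-helix regulators of hypothalamus and midline, started between 0.1 and 1 CPM. SIM1 had 0.899 and 0.678 CPM untreated, 1.51 and 0.653 CPM on day 1, 1.01 and 2.01 CPM on day 3, 0.233 and 0.224 CPM on day 5, and 0.116 and 0.569 CPM on day 6. All 4 late libraries were below both untreated ones, and SIM1 was 2.86-fold lower (log2 -1.51, SE 0.58, adjusted p = 0.0263). That call was lost in 4 of 11 alternatives (adjusted p from 0.00444 to 0.138): in the fit of only the groups compared (0.0572), and without untreated library a (0.138), the second day 5 library (0.054) or the first day 6 library (0.102). SIM2 had 0.478 and 0.973 CPM untreated and 0.0634 and 0.136 CPM on day 3, then 0.129 and 0.348 CPM on day 5 and 0.897 and 0.682 CPM on day 6. It was 6.94-fold lower at day 3 (log2 -2.79, SE 0.97, adjusted p = 0.0164). The SIM2 call was lost without untreated library b (0.111, alternatives from 0.0123) or without the first day 3 library (0.0966).

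Among the PAX factors, PAX8 (thyroid and kidney) and PAX9 (thymus, teeth and vertebrae) fell, PAX6 (eye and brain) had a low point at day 3, and PAX1, PAX2 and PAX3 had 1, 10 and 13 counts over all libraries. PAX8 had 6.49 and 6.22 CPM untreated, 2.78 and 2.47 CPM on day 1, 1.81 and 4.54 CPM on day 3, 3.08 and 3.95 CPM on day 5, and 4.08 and 3.79 CPM on day 6. All 8 UNC1999 libraries lay below the untreated ones. PAX8 was 2.42-fold lower at day 1 (log2 -1.27, SE 0.32, adjusted p = 0.00174), 1.99-fold lower at day 3 (adjusted p = 0.00998) and 1.71-fold lower at days 5 and 6 (log2 -0.77, SE 0.26, adjusted p = 0.0141). The day 3 call was lost without the first day 3 library (0.192, with 0.000144 the lowest of the alternatives), and the late call without untreated library a (0.0682, with 0.00245 the lowest). The antisense gene PAX8-AS1 overlaps PAX8 and had more reads, 34.5 and 26.4 CPM untreated and 19.2 to 25.9 CPM under UNC1999, and without strand the reads of the pair cannot be told apart.

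PAX9 had 11.1 and 10.7 CPM untreated, 10.3 and 9.11 CPM on day 1, 9.22 and 9.29 CPM on day 3, 7.77 and 8.05 CPM on day 5, and 7.38 and 8.15 CPM on day 6. It was below untreated in all 8 UNC1999 libraries, with a small gap at day 1 that did not pass (log2 -0.17, 95% interval -0.51 to 0.17, adjusted p = 0.402). At days 5 and 6 it was 1.39-fold lower (log2 -0.48, SE 0.14, adjusted p = 0.00489). PAX6 had 3.54 and 2.12 CPM untreated, 4.44 and 3.26 CPM on day 1, 1.65 and 1.01 CPM on day 3, 2.49 and 2.09 CPM on day 5, and 1.77 and 2.16 CPM on day 6. It was 2.14-fold lower at day 3 (log2 -1.10, SE 0.39, adjusted p = 0.0199), a call lost in 3 of 9 alternatives (adjusted p from 0.00754 to 0.206): only the groups compared (0.0556), without untreated library a (0.206) and without the second day 3 library (0.165). At days 5 and 6 PAX6 overlapped untreated (log2 -0.42, 95% interval -1.09 to 0.25).

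IRX5, an Iroquois factor of heart and retina, had 0.703 and 0.678 CPM untreated, 0.37 and 1.37 CPM on day 1, 1.27 and 1.22 CPM on day 3, 0.0777 and 0.199 CPM on day 5, and 0.232 and 0.455 CPM on day 6. The late libraries were all below untreated, 3.14-fold in the fit (log2 -1.65, SE 0.67, adjusted p = 0.0349). The call was lost in 5 of 11 alternatives (adjusted p from 0.0203 to 0.107): DESeq2 (0.0521), and without untreated library a (0.098), untreated library b (0.0862), the first day 5 library (0.107) or the first day 6 library (0.0967). CRNDE, a non-coding gene beside IRX5, had 58.3 and 51.9 CPM untreated and 10.95 to 19.7 CPM under UNC1999. OTX1, a forebrain factor, and TBX1, the pharyngeal T-box factor, were called in no comparison. OTX1 had 5.93 and 5.89 CPM untreated and 4.17 to 5.18 CPM on days 5 and 6, below untreated in all 4 but not called (log2 -0.38, 95% interval -0.78 to 0.02, adjusted p = 0.0927). TBX1 had 0.899 and 0.560 CPM untreated and 0.0746 to 0.673 CPM on days 5 and 6, where the groups overlapped (log2 -1.15, interval -2.81 to 0.51).

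**Figure D3:**
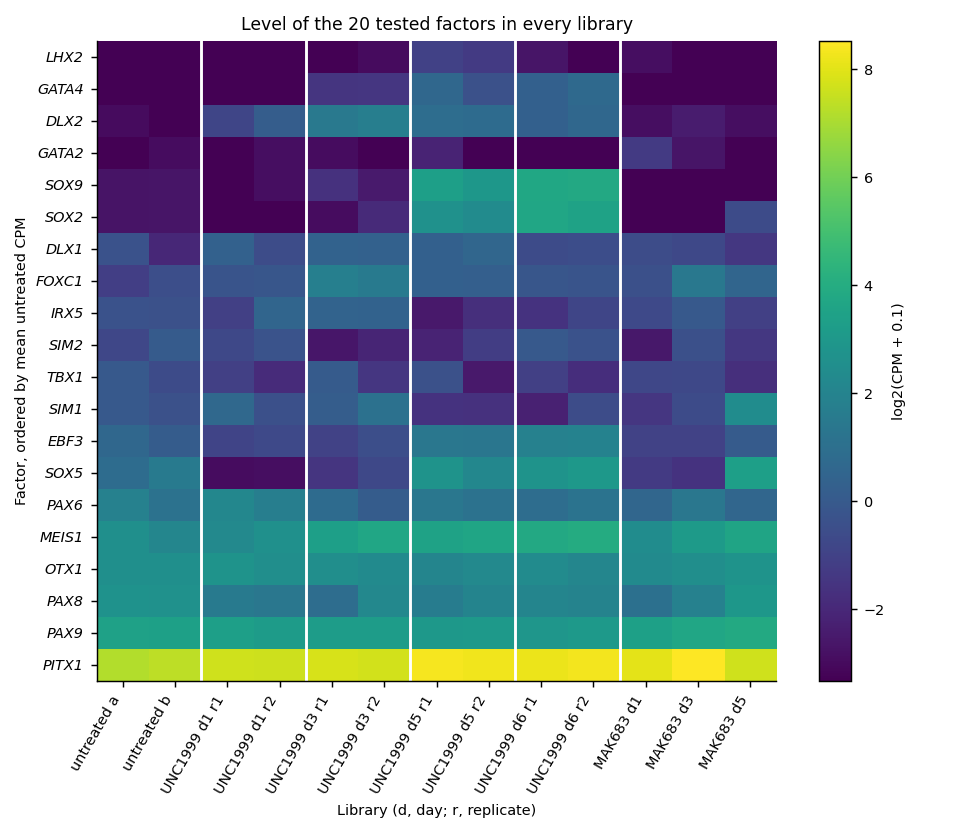
Level of the 20 tested factors (rows, ordered by mean untreated CPM) in each of the 13 libraries (columns), coloured by log2(CPM + 0.1). SOX9 and SOX2 go from dark to bright between the day 3 and day 5 columns of UNC1999, SOX9, GATA4 and DLX2 stay dark in the 3 MAK683 columns, and PITX1 is bright throughout.

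The calls were also counted by day. At day 1 of UNC1999, 2 tested factors were higher and 3 lower than untreated, a share of 25% where 54.7% of all genes were called. At day 3, 5 were higher and 5 lower, 50% against 57.1% of all genes. At day 5, 9 were higher and 4 lower, 65% against 58.7%, and at day 6, 8 were higher and 1 was lower, 45% against 58.2%. These shares carry no test, since the filter admitted some factors through their treated libraries. The day 5 count of 13 fell to 8 without untreated library a and to 6 without the first day 5 library. The first day with a called increase was day 1 for DLX2 and PITX1, day 3 for FOXC1, GATA4 and MEIS1, day 5 for SOX2, SOX5, SOX9 and LHX2, and day 6 for EBF3. The day 5 call of SOX5 (adjusted p = 0.00176) was lost in 1 of 9 alternatives, without the first day 5 library (0.0574, with 0.000274 the lowest), which would place its first call at day 6.

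Comparisons within UNC1999 leave out the untreated libraries. Days 5 and 6 against day 1 gave 7 higher and 3 lower factors among 20, where 49.3% of all genes were called. The 7 were SOX2 (at least 175-fold, from 0 counts at day 1), SOX5, SOX9, GATA4 (at least 24.2-fold), PITX1, EBF3 and MEIS1, and the 3 were SIM1, PAX6 and IRX5. For SOX5 the ratio was 193 (95% interval 53.3 to 1597, from 2 counts at day 1) and for SOX9 it was 676 (121 to 26707, from 1 count). DLX2, already present at day 1, was 2.02-fold higher but not called (adjusted p = 0.102). The 3 decreases were unstable: IRX5 was lost without the second day 1 library (adjusted p = 0.587), SIM1 without the first day 1 library (0.202) and PAX6 without the first (0.261), with adjusted p over the alternatives from 0.00566, 0.00109 and 0.0175, respectively. Day 3 against day 1 gave 7 higher and 2 lower factors where 35.4% of all genes were called. This count of 9 fell to 4 without the first day 1 library and to 5 without the second day 3 library.

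MAK683 gave fewer calls, with 1 library a day and the spread taken from the other groups. At day 1, 1 factor was higher and 3 were lower than untreated (48.6% of all genes called). At day 3, 3 were higher and 1 was lower (48.4%), and at day 5, 5 were higher and 0 were lower (29.6%). The number lower at day 5 was also 0 at an unadjusted p under 0.05 and in DESeq2. Both compounds are compared with the same untreated libraries, so their values are set side by side without an overlap count.

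In the MAK683 libraries of days 1, 3 and 5, SOX9 and GATA4 had 0 counts, DLX2 had 0.0339, 0.0884 and 0.0346 CPM, and LHX2 had 1 count in all. SOX2 had 0, 0 and 0.553 CPM, the last 9.08-fold above untreated (log2 3.18, SE 0.77, adjusted p = 0.00266). That SOX2 call was lost in the fit of only the groups compared (0.143, the highest of 7 alternatives, with 0.000427 the lowest). SOX5 had 0.305, 0.236 and 10.2 CPM, a dip and a late level above untreated as under UNC1999, lower at day 1 (7.31-fold, adjusted p = 0.000186) and day 3 (9.42-fold, adjusted p = 5.85e-05) and higher at day 5 (4.50-fold, log2 2.17, SE 0.38, adjusted p = 9.45e-05). FOXC1 had 0.644, 2.62 and 1.35 CPM, with its maximum again at day 3 (5.31-fold, adjusted p = 0.000973). MEIS1 had 5.25, 8.64 and 12.2 CPM, 2.40-fold above untreated at day 5 (log2 1.26, SE 0.23, adjusted p = 0.000173). EBF3 had 0.407, 0.413 and 0.968 CPM and was not called on any of the 3 days.

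PITX1 had 260, 370 and 203 CPM under MAK683, 1.71-fold, 2.43-fold and 1.34-fold above untreated (adjusted p = 2.63e-07, 5.48e-11 and 0.00167). The day 5 call was lost without untreated library a (0.0518, with 0.000551 the lowest of the alternatives). SIM1 had 0.271, 0.560 and 5.29 CPM, and the day 5 library was 6.67-fold above untreated (log2 2.74, SE 0.71, adjusted p = 0.00427). PAX8 had 2.00, 3.63 and 7.71 CPM and PAX9 10.6, 12.9 and 14.7 CPM, and at day 5 neither was called against untreated (log2 0.28, 95% interval -0.49 to 1.05, and 0.43, interval 0.02 to 0.83, adjusted p = 0.631 and 0.107). At day 1 PAX8 was called lower than untreated, as under UNC1999 (3.18-fold, log2 -1.67, SE 0.43). SIM2 was also called lower at MAK683 day 1, by a count ratio of 0.0942 (95% interval 0.0111 to 0.359, 2 counts against 50). That SIM2 call was lost without untreated library b. The B cell genes were also highest in the MAK683 day 5 library, with a summed level of 5567 CPM against 4589 to 4702 CPM at UNC1999 day 5. At days 1 and 3 that sum was below the untreated level under both compounds, with 2844 and 2906 CPM for MAK683 and, for UNC1999, 3477 to 3560 CPM on the first of these days and 3259 to 3393 CPM on the later one. The part of these levels in the results for the factors was not tested.

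The compounds were compared with each other at the matched dose of 5 µM on 3 matched days, with p-values adjusted over all 15278 genes within each day. They are not presented by the labels as structural relatives. At day 1, 1 of the 20 tested factors was higher and 1 was lower under UNC1999, where 8.05% of all genes were called. DLX2 was higher by a count ratio of 21.6 (95% interval 3.68 to 871, 45 counts in 2 libraries against 1 count, adjusted p = 0.0227), and PITX1 was 1.30-fold lower (log2 -0.38, SE 0.10, adjusted p = 0.0123). Without the second UNC1999 day 1 library neither passed (0.11 for DLX2, with 0.0069 the lowest of its alternatives, and 0.138 for PITX1, with 0.000163 the lowest), and DLX2 missed the threshold in DESeq2 (0.0577).

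At day 3, 2 factors were higher and 1 was lower, where 22.6% of all genes were called. DLX2 was higher by a ratio of 33.7 (95% interval 11.4 to 165, adjusted p = 0.000547), SOX9 was at least 1.65-fold higher (10 counts against 0, adjusted p = 0.0442), and PITX1 was 1.71-fold lower (log2 -0.77, SE 0.09, adjusted p = 2.75e-06). The SOX9 call was lost in DESeq2 (0.0897) and without the first UNC1999 day 3 library (0.151, with 0.0275 the lowest of the alternatives). Over all called genes at day 3, 47.7% were higher under UNC1999, and 58.9% with scaling by library size alone.

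At day 5, 5 factors were higher and 3 were lower under UNC1999, where 52.1% of all genes were called. The single MAK683 day 5 library lay near or past untreated levels for some genes outside the list. PHF19 had 56.7 CPM there, 74.1 and 72.8 CPM untreated, and 141 and 148 CPM at MAK683 days 1 and 3. EZH1 had 102 CPM there, 97.7 and 77.0 CPM untreated, and 49.5 and 42.8 CPM on those days. PHC1 did not return, with 24.9 CPM there and 5.45 and 5.42 CPM untreated. The part of this in the day 5 differences was not tested. SOX9 was at least 85.3-fold higher (adjusted p = 1.70e-09), GATA4 at least 10.3-fold (adjusted p = 0.00422) and DLX2 higher by a ratio of 50.3 (95% interval 8.87 to 1999, adjusted p = 0.000237). SOX2 was 10.2-fold higher (log2 3.36, SE 0.53, adjusted p = 1.07e-05), and PITX1 1.57-fold higher (log2 0.65, SE 0.10, adjusted p = 6.23e-06). SIM1 was 22.8-fold lower (log2 -4.51, SE 0.77, adjusted p = 2.20e-05), PAX9 1.85-fold lower (log2 -0.89, SE 0.19, adjusted p = 0.000427) and PAX8 2.19-fold lower (log2 -1.13, SE 0.37, adjusted p = 0.0128). The PAX8 call was lost without the first UNC1999 day 5 library (0.0858, with 0.000197 the lowest of the alternatives).

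Other factors did not separate the compounds at day 5 by this test, within intervals of different width. The log2 difference of MEIS1 was -0.06 (95% interval -0.53 to 0.42), that of FOXC1 -0.26 (-1.45 to 0.94), that of SOX5 -0.88 (-1.66 to -0.11, adjusted p = 0.0519) and that of EBF3 1.34 (0.10 to 2.57, adjusted p = 0.0638). DLX1 showed 2.18 (0.18 to 4.18, adjusted p = 0.0632) and OTX1 -0.62 (-1.18 to -0.05, adjusted p = 0.0614). Only the interval of MEIS1 excludes a 2-fold difference in both directions among these 6.

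**Figure D4:**
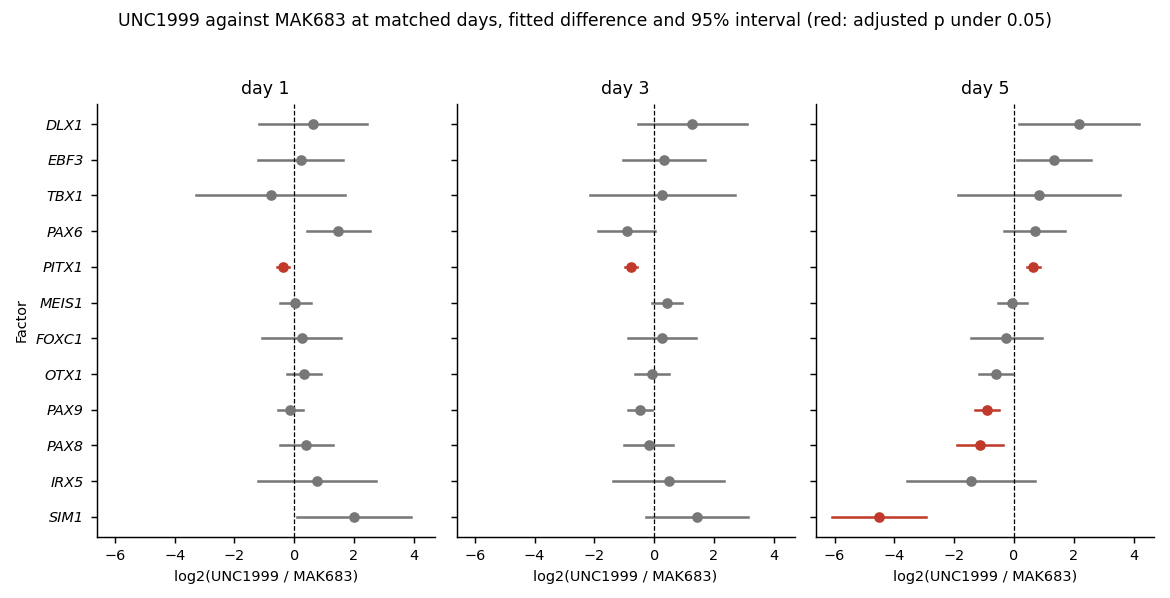
Fitted log2 difference between UNC1999 and MAK683 at days 1, 3 and 5 with 95% intervals, for the 12 factors with more than 3 counts under both compounds on all 3 days. Red marks an adjusted p under 0.05. PITX1 lies left of 0 at days 1 and 3 and right of it at day 5, and SIM1 lies far left at day 5.

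The test of whether the difference between compounds changed from day 1 to day 5 called 1 factor upward and 3 downward among 20, where 41.8% of all genes were called. PITX1 changed by 1.03 on the log2 scale (SE 0.14, adjusted p = 1.48e-06), being lower under UNC1999 at day 1 and higher at day 5. SIM1 changed by -6.50 (SE 1.23, adjusted p = 0.00013). PAX8 (-1.52, SE 0.57, adjusted p = 0.0347) and PAX9 (-0.76, SE 0.28, adjusted p = 0.0339) lost their calls in 4 and 6 of 9 alternatives. For PAX8 these included the fits without the first day 1 library (0.0754) or the first day 5 library (0.095, with 0.0109 the lowest), and for PAX9 those without the first day 1 library (0.0942, the highest, with 0.0264 the lowest) or either day 5 library (0.0764 and 0.0577). All 4 rest on a single MAK683 library a day, and that of day 5 lay near or past untreated levels for some genes outside the list. SOX2, SOX9, GATA4, GATA2 and LHX2 had 0 counts in at least 1 of the 4 groups of this test, and no estimate is given for them.

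The 37 factors below the filter held at most 42 counts each over the 13 libraries. Of these 37, 9 had 0 counts, 11 had 1 to 3 counts and 17 had 4 or more, and the highest level in any library was 0.277 CPM, for EN2 in the MAK683 day 5 library (8 counts). BARX1, a factor of stomach and tooth mesenchyme, had the most counts of them. It had 0 counts untreated, 0.222 and 0.245 CPM at UNC1999 day 3, 0.233 and 0.124 CPM on day 5, and 0.206 CPM at MAK683 day 3, which is at least 5.42-fold above untreated at UNC1999 day 3 and at least 4.11-fold at day 5. It had 0 and 0.114 CPM on day 6. TBX15 had 9 counts at UNC1999 day 3, 5 untreated and 1 in all other libraries together. LHX9 went the other way, with 0.197 and 0.0295 CPM untreated and 1 count in the 11 treated libraries together. SIX2, a kidney factor, and SIX3, an eye factor, had 1 count each. WT1, TBX3 and SOX18 had counts scattered over treated and untreated libraries.

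Other groups of genes give the setting. All counts here are for days 5 and 6 of UNC1999 against untreated, where 63.2% of all genes were called, and no list was tested as a set. The same families hold 100 more genes in the table, of which 41 were tested, and 11 of these were higher and 13 lower. The largest call among them was TBX21, the T-box factor of T and NK cells, with 0.112 and 0.177 CPM untreated and 6.59 to 18.1 CPM on days 5 and 6 (76.4-fold, adjusted p = 1.81e-12). Of the 39 HOX genes, 19 were tested, and 6 were higher and 5 lower. HOXA13 was 45.2-fold higher (adjusted p = 1.80e-07). Among 12 tested PRC2 genes 3 were higher and 7 lower, among 21 PRC1 genes 11 higher and 6 lower, and among 12 H3K27 demethylase and trithorax genes 3 higher and 8 lower. EZH2 mRNA had 180 to 209 CPM on days 5 and 6 against 227 and 209 CPM untreated (log2 -0.19, SE 0.07, adjusted p = 0.0287). EZH1 was 2.03-fold lower (adjusted p = 2.84e-09), and EED and SUZ12 were not called (log2 0.18 and 0.09). The B cell markers gave 3 higher and 4 lower of 9. Of the other marker lists, 1 plasma cell gene was higher and 1 lower of 4, 1 T cell gene was higher of 2 tested (CD3E, 4.50-fold), 1 myeloid gene was higher and 1 lower of 3, 1 stromal or endothelial gene was higher and 1 lower of 5, 2 epithelial genes were lower of 4, and 1 neural gene was higher of 3. CD3E, CSF1R and PECAM1 thus rose with SOX2 and SOX9, while CD3D and CD8A had at most 0.104 CPM and CDH5 at most 0.0562 CPM. Their part in the results was not tested.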

How the data were processed

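RNA-seq counts of 13 SUDHL10 libraries were used. The human table holds whole-number counts per gene as deposited by the authors, and no scaling had been applied. The tools listed for the series are the aligners Bowtie2 2.3.4.3 and STAR 2.5.3a, DESeq2, SICER 0.0.1 and Cell Ranger 3.0.2, with mouse build mm9, per the submitters' processing notes. For the human counts, no aligner, counter or genome build is given in the sources used here. The untreated columns share 1 header, so they are called a and b and carry no replicate number. All 13 columns matched a label. The libraries held 26234896 to 39315662 counts, and replicates differed by more than counting noise (chi-square per degree of freedom 5.78 to 19.0 over genes with 20 or more counts), so each was kept.

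The members and lists were chosen with earlier results of these data known. Values were named by rule: the members called at UNC1999 days 5 and 6, those at 1 CPM or more untreated, those called between compounds, and up to 4 genes of each other list by adjusted p. Some members outside the rule were chosen after their values were seen. All libraries entered 1 edgeR 4.0.16 quasi-likelihood model under R 4.3.3, with a mean per compound and day, edgeR's expression filter (15278 of 25369 genes) and TMM scaling. Adjusted p is Benjamini-Hochberg over these genes, called under 0.05. The tests had 5 residual degrees of freedom and a median of 18.6 prior ones, taken from the spread shared across genes. SE was derived from the log2 change and the F statistic. Where a group held 0 counts, folds were taken against 3 counts over the group and written "at least". Where it held 1 to 3, the ratio of counts has an exact 95% interval. Both cover counting error only, and fitted folds are not printed there. The scripts were tested on simulated data. Alternatives were DESeq2 1.42.0, scaling by library size, no filter, a filter of 1 CPM in 2 libraries, only the groups compared, each library left out and a replicate block. No human promoter sequence or gene length was used here, so the planned sequence view and levels per length are not given. Figures used matplotlib.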

Additional observations from a re-analysis of the deposited data

Results flagged for a closer look

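In 4 factors the difference between UNC1999 and MAK683 was itself called as different between day 1 and day 5, and the calls of PITX1 and SIM1 passed in all 9 alternatives run. For PITX1 the change was 1.033 on the log2 scale (adjusted p = 1.477e-06), with 204 and 195 CPM against 260 CPM at day 1 and 332 and 306 CPM against 203 CPM at day 5. For SIM1 it was -6.5 (adjusted p = 0.0001302), with 1.51 and 0.653 CPM against 0.271 CPM at day 1 and 0.233 and 0.224 CPM against 5.29 CPM at day 5. For PAX8 it was -1.524 (adjusted p = 0.03472), with 2.78 and 2.47 CPM against 2.00 CPM and then 3.08 and 3.95 CPM against 7.71 CPM. For PAX9 it was -0.7599 (adjusted p = 0.03388), with 10.3 and 9.11 CPM against 10.6 CPM and then 7.77 and 8.05 CPM against 14.7 CPM. The PAX8 call was lost in 4 of 9 alternatives (adjusted p from 0.0109 to 0.095) and the PAX9 call in 6 of 9 (0.0264 to 0.0942). Each rests on 1 MAK683 library a day, and that of day 5 lay near or past untreated levels for some genes outside the list.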

How the results depend on the processing

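No called factor changed direction under any alternative run, and 62 of 98 factor-by-comparison calls passed in all of theirs. With 1 library left out, 71 of 384 refits lost a call, against 9 of 98 in DESeq2, 7 of 92 with only the groups compared, 3 of 98 without a filter, 2 of 98 with library size scaling and 0 of 94 with the stricter filter. Counts of called factors moved by over 1.5 times in 5 comparisons. UNC1999 day 5 against untreated gave 13, and 6 to 11 with 1 library left out. Day 3 against day 1 gave 9, 5 with only the groups compared and 4 to 8 with 1 left out. UNC1999 against MAK683 at day 1 gave 2, 1 in DESeq2, 4 without a filter and 0 to 2 with 1 left out, and at day 5 it gave 8, and 13 with only the groups compared. The compound-by-day test gave 4, and 2 to 5 with 1 left out. The cause was not tested. Where leaving out a library leaves 1 in a group, that library is assumed to vary like the others. The replicate numbers did not pair the libraries (correlations of -0.0884 to 0.212 between UNC1999 days). With the replicate block, days 5 and 6 against day 1 gave 10 calls, day 3 against day 1 gave 8, and the compound comparisons gave 3, 3 and 9 at days 1, 3 and 5, against 10, 8, 2, 3 and 11 without it over the same treated libraries. Under the block 1 call was lost, SIM2 at day 3 against day 1 (adjusted p = 0.0694), which the treated libraries without the block also lost (0.057). Factors under 0.1 CPM rest on a few counts, and there only large changes could be detected at this depth.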
